A study of Mus musculus with 9 samples.

Results

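miR-335 is made from a single hairpin in an intron of Mest, and both of its mature products, miR-335-5p and miR-335-3p, were measured in the left ventricle of mice that carry an Nrf2 transgene. In the table they are mmu-miR-335-5p and mmu-miR-335-3p, the 2 rows whose names start with miR-335 among the 621 mature miRNAs of a raw count table, and both were among the 509 rows with enough counts to be tested. They were selected on their counts in the 3 groups, with their lower level in CaNrf2-High hearts already known, so their levels between groups are given as a description, with no p-value. The study holds 9 microRNA libraries from left ventricles of male C57BL/6J mice aged 6 months, with 3 libraries in each group. The groups are the CaNrf2-High line (TG-High), the CaNrf2-Low line (TG-Low) and non-transgenic mice (NTG), which carry no transgene. The sources used here do not give the promoter of the transgene, the number of founders or whether each library is a separate animal. Errors therefore measure the spread between libraries, which may be technical. The study asked which heart miRNAs follow the activity of Nrf2, which drives antioxidant genes in response to oxidative stress.

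A miRNA hairpin is cut from a longer transcript, and Dicer then cuts the hairpin into a duplex of a 5p and a 3p strand. Either strand can be loaded into an Argonaute protein, where the seed, bases 2 to 8, pairs with target mRNAs and lowers their output, while the other strand is usually degraded. Mest (mesoderm-specific transcript) encodes a protein of the alpha/beta hydrolase fold and is imprinted, being expressed from the paternal allele and most strongly in embryonic mesoderm. In human breast cancer cells miR-335 is known as a suppressor of metastasis that acts on SOX4 and tenascin C.

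The mature arms are shown with their seeds in capitals, because the seed decides which mRNAs each arm can pair with. Sequences are from RefSeq, build GRCm38.p6.
miR-335-5p: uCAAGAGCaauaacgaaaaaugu
miR-335-3p: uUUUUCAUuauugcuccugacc
The 5p arm has 23 bases, of which 30.4% are G or C, and lies at chr6:30741314-30741336 on the plus strand. The 3p arm has 22 bases with 36.4% G or C and lies at chr6:30741354-30741375. The arms carry different seeds, and none of the other 1678 mature mouse miRNAs in the RefSeq table shares either of them. The closest other mature sequences differ by 8 edits from the 5p arm (miR-148a-3p among them) and by 6 edits from the 3p arm (miR-7675-3p), where an edit is a base changed, inserted or deleted. In the RefSeq table both arms are listed for the hairpin Mir335 alone.

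The whole hairpin of 98 bases is shown with both arms in capitals, because it shows how the arms face each other.
Mir335 hairpin: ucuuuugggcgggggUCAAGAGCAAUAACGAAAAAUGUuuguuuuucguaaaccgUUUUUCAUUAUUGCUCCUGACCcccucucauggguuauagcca
A loop region of 17 bases separates the arms. In the minimum free energy structure predicted by RNAfold (-44.3 kcal per mol), 20 of the 23 bases of the 5p arm were paired, 18 of them with the 3p arm. In each arm 6 of the 7 seed bases were paired within the hairpin.

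The hairpin lies at chr6:30741299-30741396 in GRCm38, on the strand of Mest, whose gene spans chr6:30723547-30748465. Of 11 Mest transcripts in GENCODE M21, 7 span the hairpin, and in all 7 it is intronic, 474 bases after one exon and 744 bases before the next. The intron is the second in Mest-201, Mest-207, Mest-210 and Mest-211, and the other 4 Mest transcripts do not reach the hairpin. No other annotated gene overlaps it. Transcripts Mest-210 and Mest-211 start 7793 and 3249 bases upstream of the hairpin. The core of the antioxidant response element, to which Nrf2 binds with small Maf proteins, was searched as TGACNNNGC on both strands in the 3 promoter windows of Mest in the RefSeq table, each of 300 bases, some of which overlap. It had 0 matches in the 3 windows, and 12.4% of the 32851 windows of all genes hold at least 1. These letters are absent from these windows, which says nothing about binding elsewhere. The level of the Mest transcript was not analysed here.

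Levels are in counts per 1000000 counts of the library with TMM scaling (CPM), which corrects for depth and for a few dominant miRNAs. Total counts per library were 3620465 to 11695744 in TG-High, 8120030 to 8656324 in TG-Low and 7174891 to 10132597 in NTG. TG-High replicate 2 was the least deep and TG-High replicate 1 the deepest. The arms together had 721 to 2657 counts in TG-High, 2782 to 3596 in TG-Low and 3342 to 5222 in NTG libraries. The labelled tissue was checked against heart muscle miRNAs, and miR-208a-3p and miR-499-5p, encoded in myosin genes, had at least 10027 and 49562 counts in every library. The arms of miR-1a and miR-133a, usually among the most abundant miRNAs of heart muscle, were low, with means of 115 CPM in TG-High, 132 in TG-Low and 84.2 in NTG for miR-1a-3p, and of 1.84, 1.46 and 1.26 CPM for miR-133a-3p.

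miR-335 was more abundant than most tested miRNAs, and its level was lowest in TG-High. miR-335-5p was at 115, 116 and 85.9 CPM in TG-High replicates 0, 1 and 2, at 219, 216 and 217 CPM in TG-Low, and at 319, 191 and 274 CPM in NTG. Every TG-High library was lower than every TG-Low and NTG library, and the TG-Low libraries lay within the range of the NTG libraries. Over all tested rows, all TG-High libraries lay below all TG-Low libraries in 9.04% and below all NTG libraries in 19.3%. The means were 106 ± 17.0 CPM in TG-High, 217 ± 1.90 in TG-Low and 261 ± 65.2 in NTG (SD, n = 3 each). The close agreement of the 3 TG-Low libraries was not shared by the other arm.

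miR-335-3p was at 94.0, 100.4 and 111 CPM in TG-High replicates 0, 1 and 2, at 221, 176 and 147 CPM in TG-Low, and at 213, 200.2 and 266 CPM in NTG. TG-High was again lowest with no overlap, beside the same shares of all rows, while the TG-Low and NTG libraries overlapped. Its means were 102 ± 8.74 CPM in TG-High, 181 ± 37.2 in TG-Low and 227 ± 35.1 in NTG (SD, n = 3 each). Summed over both arms, the hairpin gave 207 ± 9.64 CPM in TG-High, 398 ± 38.7 in TG-Low and 488 ± 84.0 in NTG. The order TG-High, TG-Low, NTG held for the mean of each arm and of the sum, but TG-Low and NTG did not differ beyond the spread of their libraries. These are whole-tissue libraries, in which fewer cells of a type and less RNA per cell cannot be told apart.

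**Figure D1:**
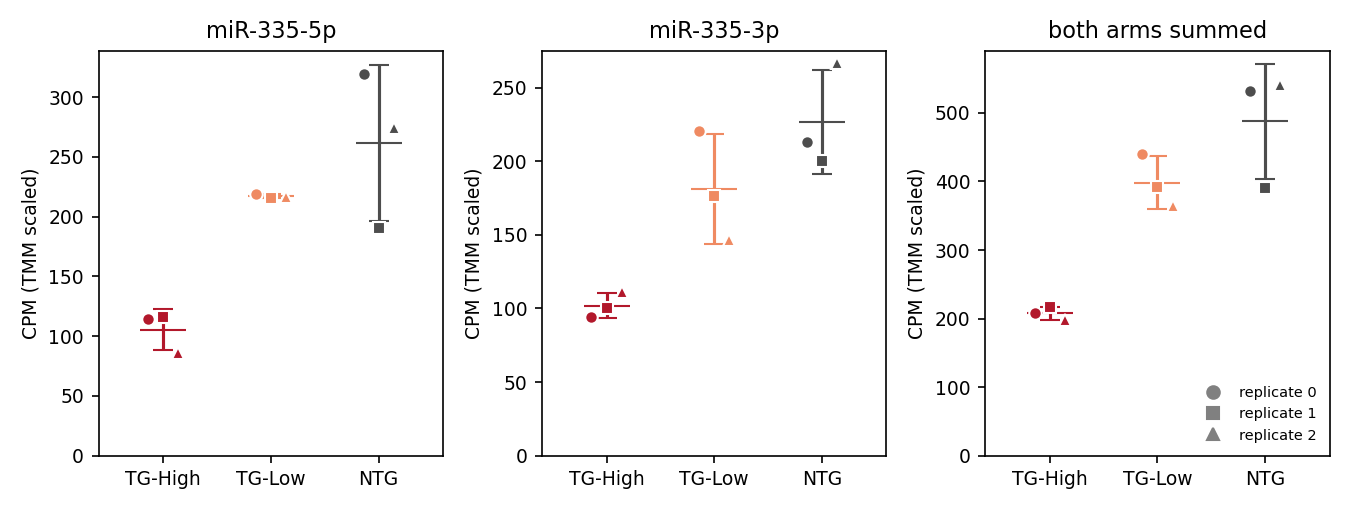
Levels of miR-335-5p, miR-335-3p and their sum (CPM with TMM scaling) in each library by group, where bars are the mean ± SD of 3 libraries and marker shapes give the replicate number. The TG-High libraries lie lowest in each panel, at 85.9 to 116 CPM for the 5p arm and 94.0 to 111 CPM for the 3p arm.

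By mean level, the arms stood side by side among the 509 tested rows. In TG-High 71.5% of the rows were below the 5p arm and 71.3% below the 3p arm. The shares were 79.0% and 77.0% in TG-Low, and 80.2% and 80.0% in NTG. Their spread within groups was close to that of other miRNAs. The SD of log2 CPM within groups was 0.26 for the 5p arm and 0.22 for the 3p arm, against a median of 0.20 over the 100 rows between 100 and 1000 CPM.

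The comparison of TG-High with NTG asks what the High line shows by itself. The log2 fold change from edgeR's quasi-likelihood fit was -1.31 ± 0.19 (SE) for miR-335-5p, 2.47-fold lower in TG-High, and -1.15 ± 0.18 for miR-335-3p, 2.22-fold lower. Both arms were past the adjusted p of 0.05 that defines a call, which is how they came to be chosen, where 9.43% of all 509 rows were called lower. All TG-High libraries lay below all NTG libraries for both arms, as they did for 19.3% of the rows. Counted from the most negative fold change, the 5p arm was at position 12 and the 3p arm at position 17 of 509. Among the 150 rows of at least 100 CPM on average, the 5p arm had the most negative value after miR-451a (-1.83) and miR-144-3p (-1.52), both from the erythroid cluster of miR-144 and miR-451a, and the 3p arm came next after miR-155-5p (-1.17). Both arms kept their call in this comparison under each of the 15 alternatives run, which include leaving out each library. Over these alternatives 37 to 114 rows were called in either direction. The alternatives reuse the libraries with which the arms were chosen, so the kept calls are no independent support.

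In TG-Low against NTG the log2 fold changes were -0.27 ± 0.19 (SE) for miR-335-5p and -0.32 ± 0.18 for miR-335-3p. Neither arm was called by edgeR, where 0.196% of rows were called lower, 1.38% higher and 1.57% in either direction. Likewise 0 of 2 were past an unadjusted p of 0.05 or called by DESeq2's Wald test. The values were 1.20-fold and 1.25-fold lower in TG-Low, and the libraries of the 2 groups overlapped. All TG-Low libraries lay below all NTG libraries in 10.4% of the rows, which did not include either arm.

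TG-High against TG-Low compares the 2 lines with each other. The log2 fold changes were -1.04 ± 0.19 (SE) for miR-335-5p, 2.05-fold lower in TG-High, and -0.83 ± 0.18 for miR-335-3p, 1.78-fold lower. Both arms were called, and they were 2 of the 6 rows called lower, 1.18% of those tested (1.38% in either direction). All TG-High libraries lay below all TG-Low libraries for both arms, as they did for 9.04% of the rows. The other 4 were miR-451a (-1.33) and miR-144-3p (-1.22) of erythroid cells, miR-150-5p (-0.87) of lymphocytes, and miR-499-5p (-0.65) of heart muscle. The single row called higher was miR-21a-5p (0.66), which is induced in stressed hearts. The TG-High libraries are the same as in the comparison that chose the arms, so these values are not independent of the choice. The calls rested on the libraries of both lines, and both arms were called without any 1 NTG library. Neither arm was called without TG-High replicate 0, 1 or 2, or without TG-Low replicate 0 or 1, and the 3p arm alone was called without TG-Low replicate 2. The log2 fold changes moved less, between -1.15 and -0.87 for the 5p arm and between -0.90 and -0.64 for the 3p arm.

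**Figure D2:**
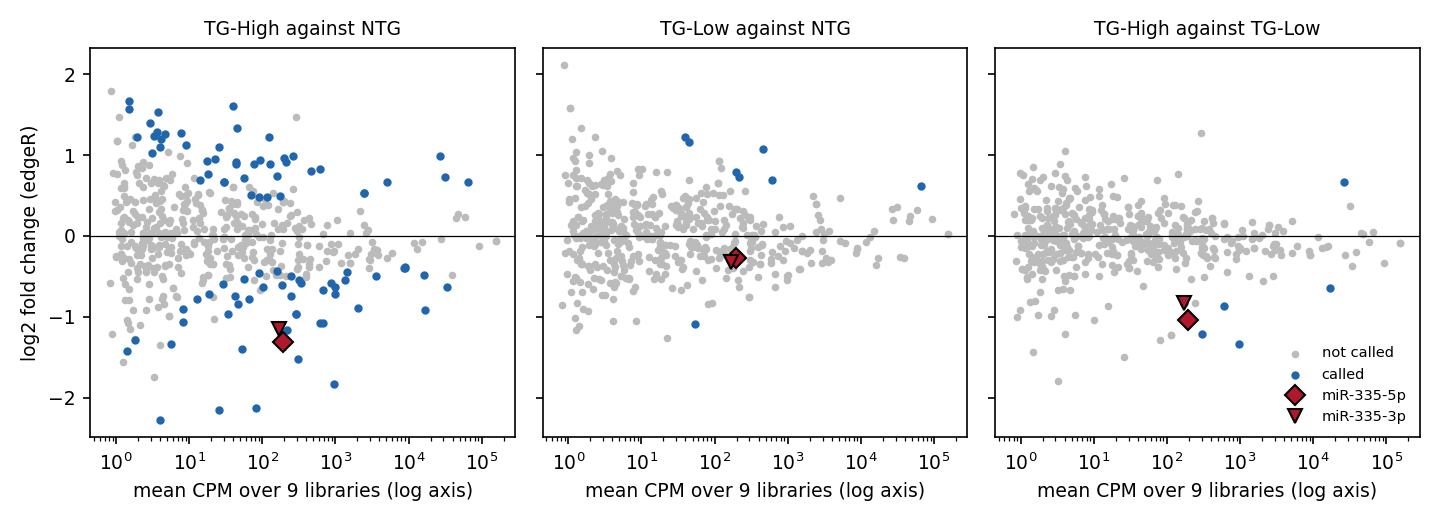
Log2 fold change (edgeR, vertical) against mean CPM over the 9 libraries (horizontal, log axis) for the 509 tested rows in 3 comparisons, with called rows in blue and the miR-335 arms in red whether called or not. The arms lie at -1.31 and -1.15 in TG-High against NTG, at -0.27 and -0.32 in TG-Low against NTG, and at -1.04 and -0.83 in TG-High against TG-Low.

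The authors' deposited table compares both lines together with NTG. For miR-335-5p the log2 fold change in the authors' deposited table is -0.70, with SE 0.31 and an adjusted p of 0.108. For miR-335-3p the authors' deposited table gives -0.69, with SE 0.26 and an adjusted p of 0.0589. Neither is among the 46 rows that are lower at an adjusted p of 0.05 in the authors' deposited table, which are 7.41% of its 621 rows. That comparison averages over TG-Low and TG-High, whose miR-335 levels lay apart.

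The balance of the arms was not itself used to choose miR-335, and it was nearly even in every library. The arms were chosen with the lower level of both in TG-High known, which favours a ratio that is alike between groups. Comparisons of the ratio between groups are therefore not independent of the choice. Of the miR-335 counts, the 5p arm held 54.9%, 53.6% and 43.6% in TG-High replicates 0, 1 and 2, then 49.8%, 55.0% and 59.6% in TG-Low, and 60.0%, 48.8% and 50.7% in NTG. The groups overlapped throughout, with the lowest share in TG-High replicate 2, the least deep library. Its exact 95% binomial interval was 39.9% to 47.3%, and that of NTG replicate 0, the highest share, was 58.4% to 61.5%. These intervals cover counting error only, and libraries of 1 group differed by more than that. The mean share was 50.7 ± 6.22% in TG-High, 54.8 ± 4.90% in TG-Low and 53.2 ± 5.99% in NTG (SD, n = 3 each).

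No difference in the ratio of the arms between groups was called, an outcome that the choice of the arms favours. The tests of miR-335 are therefore given as a description. The ratio was tested with limma on the log2 ratio of 5p to 3p counts, in 1 fit with 3 groups. The fit held the 149 hairpins with both arms tested. For miR-335 the F test over the groups gave an adjusted p of 0.784, and 3 of the 149 hairpins (2.01%) were called. The log2 ratio in TG-High minus that in NTG was -0.15, with a 95% interval of -0.64 to 0.35. TG-Low minus NTG was 0.10 (-0.40 to 0.60), and TG-High minus TG-Low was -0.24 (-0.74 to 0.26). Shifts of the 5p to 3p ratio between 0.639-fold and 1.28-fold in TG-High against NTG lie within that interval. An exact permutation test over the 1680 ways to form 3 groups of 3 libraries gave p = 0.632.

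Most hairpins used their arms far less evenly. Averaged over the libraries, the 5p arm of miR-335 was 1.12-fold the 3p arm, the sixth most even of the 149 hairpins. The median hairpin had 11.5-fold more counts of its major arm, 29 hairpins were under 2-fold and 76 were over 10-fold. Some pairs of hairpins, such as miR-299a and miR-299b, had the same counts on opposite arms. The 149 hairpins are therefore not all separate measurements. The 5 hairpins that were more even, miR-301a, miR-324, miR-362, miR-382 and miR-877, had at most 69.4 CPM over both arms, against 365 CPM for miR-335. The within-group SD of the log2 arm ratio was 0.33 for miR-335 and 0.23 at the median of the 37 hairpins within 2-fold of its abundance. The log2 CPM of the 2 arms had a Pearson r of 0.88 over the 9 libraries, which share the 3 groups. It was 0.06 once each group's mean was taken away. So few libraries cannot settle whether the arms move together within groups.

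**Figure D3:**
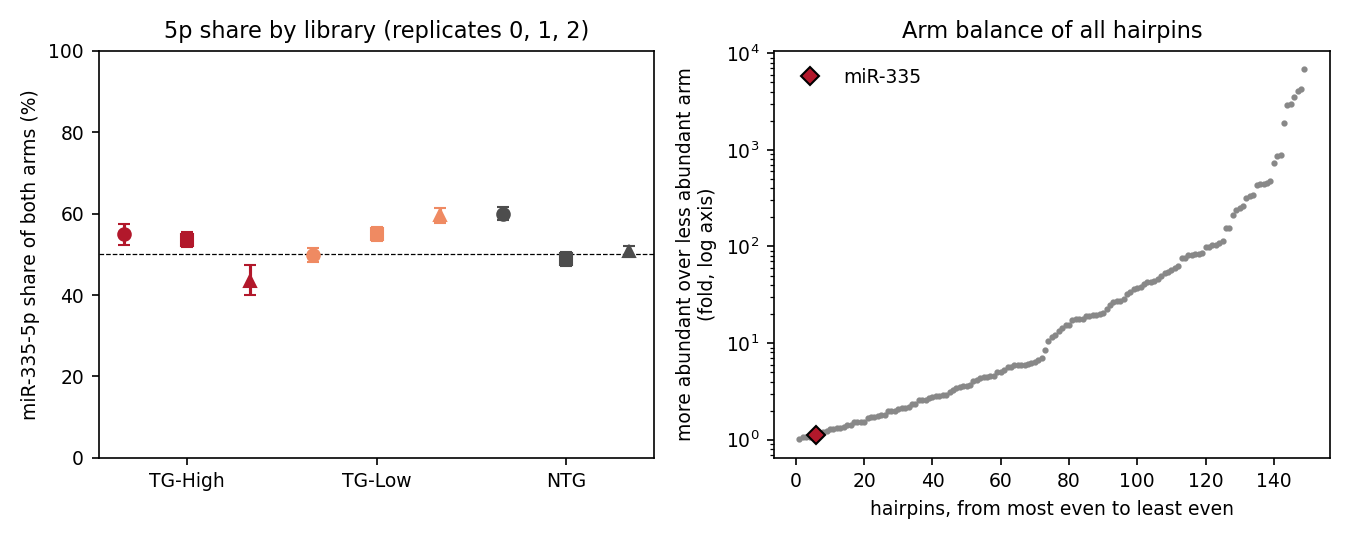
Left, share of miR-335 counts on the 5p arm (%) in each library with exact 95% binomial intervals, by group; right, fold of the more over the less abundant arm (log axis) for 149 hairpins in order of evenness. The shares run from 43.6% to 60.0% with overlapping groups, and miR-335 (red, 1.12-fold) is the sixth most even hairpin.

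Other miRNAs with the pattern of miR-335-5p were sought among the 286 other rows of at least 10 CPM, by the Pearson r of log2 CPM over the 9 libraries. The 9 libraries fall into 3 groups and differ in depth, so r is a description. The 8 highest were miR-191-5p (r = 0.92), miR-185-5p (0.91), miR-451a (0.90), miR-150-5p (0.90), miR-155-5p (0.90), miR-144-3p (0.87), miR-320-3p (0.87) and miR-203-3p (0.87). The 3p arm, at 0.88, would stand between miR-155-5p and miR-144-3p. Blood cell miRNAs in this list are miR-451a and miR-144-3p of red cells, miR-150-5p of lymphocytes and miR-155-5p of activated immune cells. Other leukocyte miRNAs did not share the pattern, with r of 0.17 for miR-142a-5p, -0.52 for miR-142a-3p, -0.69 for miR-223-5p and -0.75 for miR-223-3p. miR-191-5p, first in the list, changed far less in size than miR-335, with 4578 ± 91.2 CPM in TG-High, 5280 ± 150 in TG-Low and 5531 ± 204 in NTG (SD, n = 3 each). miR-150-5p had an r of 0.97 with the 3p arm. It was at 376.5, 354 and 386 CPM in TG-High, at 777, 653 and 611 CPM in TG-Low, and at 733, 780.0 and 838 CPM in NTG, so TG-High was lowest and the other groups overlapped.

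Within groups the likeness was mostly smaller. After each group's mean was taken away, r with miR-335-5p was 0.81 for miR-320-3p, 0.72 for miR-155-5p and 0.65 for miR-185-5p, but 0.35 for miR-451a, 0.05 for miR-144-3p and -0.20 for miR-150-5p. Without TG-High replicate 2, the least deep library, only 2 of the 8 (miR-191-5p and miR-451a) were still among the highest 8, and without TG-Low replicate 1 there were 4. The most opposite rows were miR-326-3p (r = -0.97), miR-21a-5p (-0.90) and miR-744-5p (-0.84). miR-326-3p was at 37.2 ± 4.14 CPM in TG-High, 22.5 ± 1.70 in TG-Low and 17.3 ± 3.89 in NTG.

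**Figure D4:**
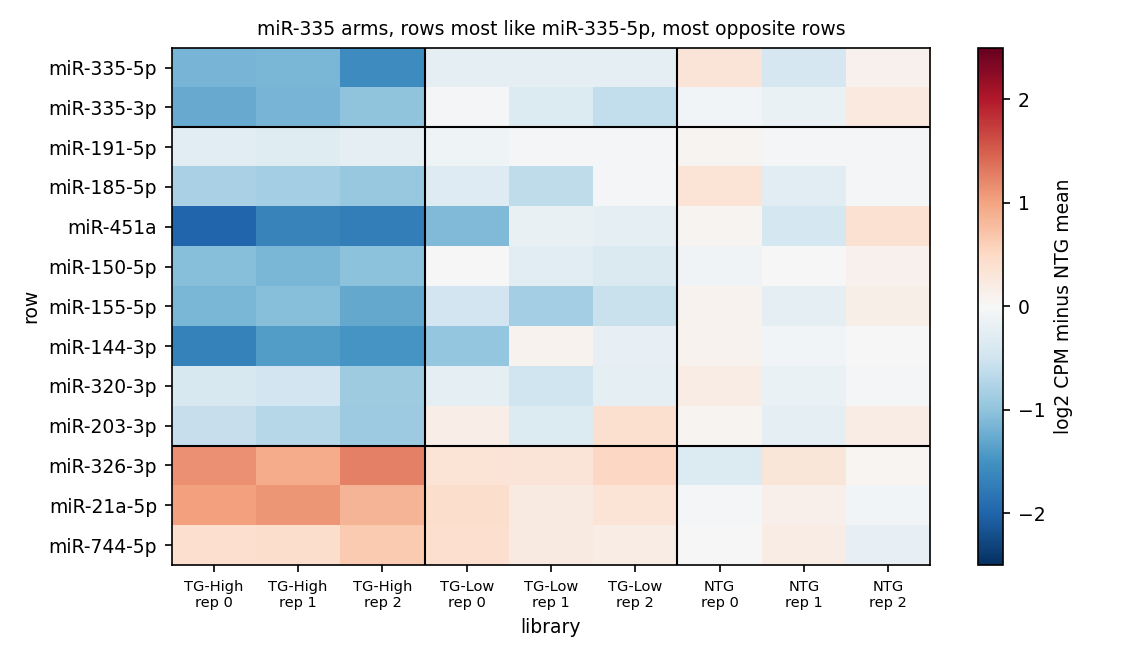
Log2 CPM minus the NTG mean (colour) of the miR-335 arms, the 8 rows most like miR-335-5p and the 3 most opposite rows, in each library. By group mean the like rows are lowest in TG-High and the opposite rows highest there, with miR-191-5p the palest of the like rows. Single libraries of miR-320-3p and miR-744-5p overlap between TG-High and TG-Low.

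Rows that mark other cell types were counted in the same comparison of TG-High with NTG, where 9.43% of all rows were called lower, 8.84% higher and 18.3% in either direction. All 3 erythroid rows (both arms of miR-144, and miR-451a) were called lower. Their summed level was 516 to 644 CPM in TG-High, 926 to 1791 in TG-Low and 1552 to 2413 in NTG, so TG-High stood below both other groups. Of 8 leukocyte rows 3 were called lower (both arms of miR-150, and miR-155-5p) and 1 higher (miR-223-5p). The leukocyte sum was 1127 to 1190 CPM in TG-High, 1316 to 1675 in TG-Low and 1638 to 1727 in NTG. The rows in this sum did not move together. In TG-High against NTG the log2 fold changes were -1.34 to -1.08 for both arms of miR-150 and miR-155. They were 0.41 for miR-142a-3p, 0.42 for miR-223-3p and 0.93 for miR-223-5p, and -0.02 for miR-142a-5p. The lower sum is therefore not a lower level of all leukocyte rows. Of 4 tested epithelial rows 2 were called lower (miR-200c-3p and miR-203-3p), with sums of 176 to 213, 241 to 493.3 and 282 to 372 CPM in TG-High, TG-Low and NTG libraries.

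In each list of resident heart cells 1 row was called, and in lists this short a single call is no result about the list. Of 9 heart muscle rows 1 was called lower, miR-499-5p, which makes up most of that list's sum of 12435 to 16565 CPM in TG-High, 19348 to 23130 in TG-Low and 22309 to 26478 in NTG. Of 4 fibroblast and mesenchyme rows 1 was called higher (miR-214-5p, 0.74), with sums of 804 to 1066 CPM in TG-High, 797 to 945 in TG-Low and 706 to 881.996 in NTG. Of 4 smooth muscle rows 1 was lower (miR-145a-3p), and of 2 endothelial rows 1 was lower (miR-126a-5p), a call that DESeq2 did not make. The epithelial rows miR-200a-5p and miR-203-5p were at 0 in all TG-High libraries, and miR-200a-5p also in all TG-Low libraries, but they had at most 2 and 12 counts in any library and were not tested. The part of these cell types in the level of miR-335 was not tested.

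The miRNAs of other imprinted loci had a share of higher calls near that of all rows, and none was called lower in TG-High. They were matched by a list of names that is not complete and leaves out miR-337-5p (log2 fold change 0.32) of Dlk1-Dio3. Of 58 tested rows from the Igf2, Gnas, Sfmbt2 and Dlk1-Dio3 loci, 7 were called higher in TG-High against NTG and 0 lower. Over all rows 8.84% were called higher, 9.43% lower and 18.3% in either direction. At an unadjusted p of 0.05 edgeR had 12 of the 58 in either direction, against 157 of all 509 rows. DESeq2 called 8, against 98 of all rows. Both are smaller shares than over all rows. The median log2 fold change was 0.37, against -0.01 over all rows. In the Dlk1-Dio3 cluster, which is expressed from the maternal allele, 6 of 49 rows were higher, miR-434-5p (0.89 ± 0.21 SE, edgeR adjusted p = 0.0141), miR-381-3p (0.93), miR-136-5p (0.67), miR-376b-5p (1.12), miR-377-3p (1.02) and miR-3071-3p. miR-3071-3p had the same counts as miR-136-5p, so these 2 count as 1 measurement. The rows of miR-299a and miR-299b, also among the 58, had the same counts in pairs. The most abundant row of the cluster, miR-127-3p, had 331 CPM in TG-High and 268 CPM in NTG (log2 fold change 0.30, edgeR adjusted p = 0.496). The cluster's summed level was 1574 to 1715 CPM in TG-High, 772 to 1766 in TG-Low and 1064 to 1319 in NTG, with the low end of TG-Low in a single library. The count of 7 fell to 1 without TG-High replicate 0 or 1 or NTG replicate 2, to 2 without TG-High replicate 2 or NTG replicate 0 and to 3 without NTG replicate 1, and was 16 without TG-Low replicate 2.

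The smaller loci had low counts. From Gnas, miR-298-5p was higher in TG-High (5.80 CPM, against 2.79 CPM in NTG, edgeR adjusted p = 0.0315), and miR-296-5p (0.25) and miR-296-3p (0.86) were not called. miR-483-3p from Igf2 had a log2 fold change of -0.52 at 1.27 CPM on average, and miR-467e-5p, the most abundant of the Sfmbt2 cluster, had -0.18. The 5 tested Sfmbt2 rows ranged from -0.91 to -0.08, and none of them was called. In TG-Low against NTG edgeR called 0 of the 58 rows, where 1.57% of all rows were called in either direction. Its count became 4 without TG-Low replicate 2 and 2 without NTG replicate 2. At an unadjusted p of 0.05 edgeR had 5 of the 58, against 88 of all 509 rows. DESeq2 called 0, against 29 of all rows.

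The miRNAs that neighbour miR-335 on chromosome 6 had a share of calls near that of all rows. Within 10 Mb, 10 other rows from hairpins of the RefSeq table were measured, all of them tested. In TG-High against NTG 1 was called higher and 0 lower, where 8.84% of all rows were called higher and 9.43% lower. At an unadjusted p of 0.05 edgeR had 2 of the 10, against 157 of all 509 rows. DESeq2 called 1, against 98 of all rows. The nearest hairpins are those of miR-29a and miR-29b-1, 321 and 322 kb downstream on the opposite strand. miR-29a-3p, known for targeting collagen mRNAs, was at 14415 ± 1208 CPM in TG-High and 15215 ± 1783 CPM in NTG (SD, n = 3 each; log2 fold change -0.08). miR-29a-5p had 0.11, miR-29b-1-5p 0.11 and miR-29b-3p, which also comes from a second hairpin elsewhere, 0.19. The miR-183 cluster lies upstream at -575 to -572 kb, also on the minus strand, where miR-96-5p rose (5.27 CPM in TG-High, against 2.11 CPM in NTG, log2 fold change 1.29 ± 0.30 SE, edgeR adjusted p = 0.0144). Its call was lost without TG-High replicate 1, and miR-182-5p (0.51) and miR-183-5p (0.29) were not called. Farther away, miR-490-3p had 0.10, miR-490-5p -0.27 and miR-592-5p -0.79. The median of the 10 rows was 0.11.

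**Figure D5:**
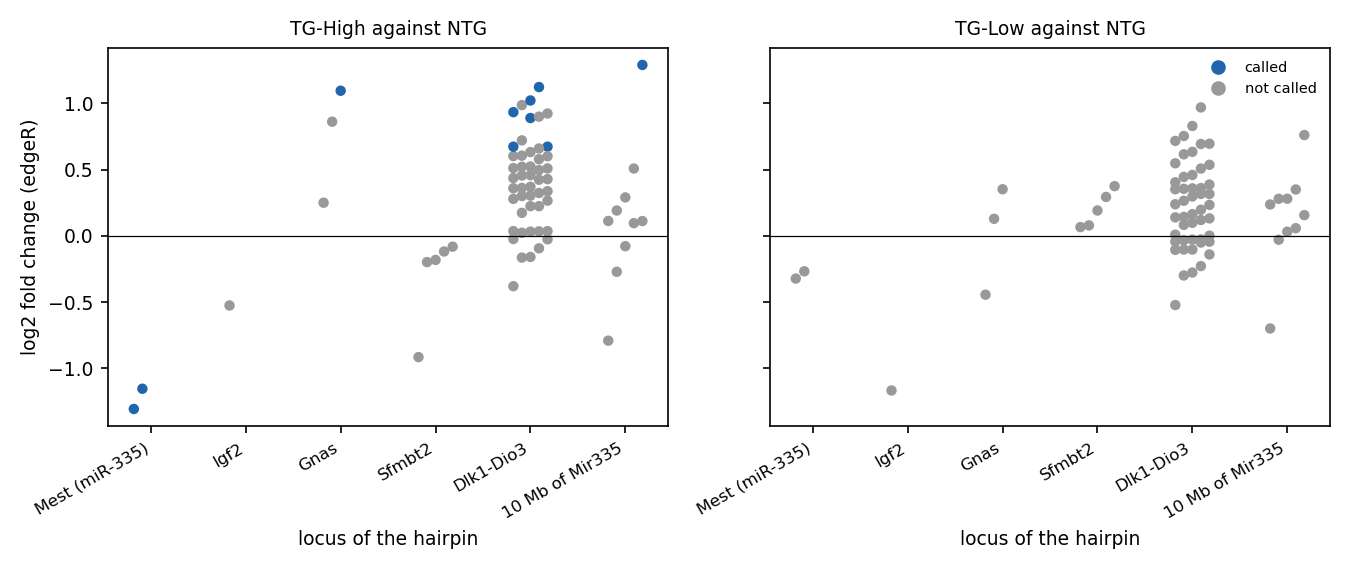
Log2 fold changes (edgeR) of tested rows by the locus of their hairpin, for TG-High against NTG (left) and TG-Low against NTG (right), with called rows in blue. On the left the miR-335 arms lie at -1.31 and -1.15, while 7 rows of the other imprinted loci and miR-96-5p within 10 Mb of Mir335 were called higher. Over all tested rows 8.84% were called higher in that comparison.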

How the data were processed

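The deposited table holds a raw read count of each of 621 mature miRNAs in each of 9 libraries, per the file headers. It also holds the authors' mean normalized signal per miRNA and, for both lines against NTG, their log2 fold change with its standard error, the Wald statistic as a score, and the p-value with its adjusted p, as deposited by the authors. Tools in the submitters' processing notes are DESeq2 1.18.1, Novoalign, SAMtools, Trim Galore 0.4.0 and bcl2fastq 1.8.4, and the build is mm10 (GRCm38). The labels name an Illumina TruSeq RNA kit and 1 ug of total RNA. The sources used here do not give how reads were counted or with what miRNA annotation.

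Counts were fitted with edgeR 4.0.16 (quasi-likelihood, TMM scaling, R 4.3.3) in 1 model of 3 groups over the 509 rows kept by filterByExpr at a minimum count of 10, with Benjamini-Hochberg adjustment over all of them and a threshold of 0.05. Log2 CPM used a prior count of 2. Arm ratios were fitted with limma 3.58.1 on log2 ratios of counts plus 0.5, with an abundance trend, for 149 hairpins. The fits were tested on simulated data. Alternatives were DESeq2 1.42.0, DESeq2 size factors, library totals, no filter, each library left out, the replicate number as a block, and the 5 most abundant rows left out. Structures came from RNAfold 2.7.2 and plots from Python 3.11.15. Sequences were found for 544 of the 621 rows by name.

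The members, lists and tests were chosen with earlier results of these data known. The named rows are both arms, the 8 rows most like miR-335-5p by r, all measured rows within 10 Mb of the hairpin, and of the imprinted loci those outside Dlk1-Dio3 and Sfmbt2, with the called and the most abundant rows of those clusters. The 3 most opposite rows, the rows called between the lines and the marker rows were named after their values were seen. The miRNAs searched for H19 (miR-675) and neural tissue (miR-124, miR-9) matched 0 rows.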

Additional observations from a re-analysis of the deposited data

Results flagged for a closer look

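The difference from NTG was not the same size in the 2 lines. TG-High minus TG-Low was -1.04 on the log2 scale for miR-335-5p and -0.83 for miR-335-3p, and both differences were past the threshold of edgeR's test of the lines against each other. All 3 TG-High libraries lay below all 3 TG-Low libraries for both arms, as they did for 9.04% of all rows. In that comparison 1.18% of all rows were called lower. The arms were chosen with the low level of TG-High known, and leaving out any 1 library of either line ended at least 1 of the 2 calls.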

How the results depend on the processing

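The log2 fold changes of both arms kept their sign in the 3 comparisons under all 15 alternatives, moving by less than the within-group SD. Both arms were called in TG-High against NTG, and neither in TG-Low against NTG, under all 15. The alternatives reuse the libraries with which the arms were chosen, so they are no independent support. In TG-High against TG-Low 1 of the 2 arms was called with the replicate number as a block and 1 with library totals in place of TMM, in both cases the 5p arm, and 0 to 2 with each library left out. The p of the arm ratio stayed above the threshold in all its alternatives, an outcome that the choice of the arms favours. The adjusted p of limma's F test was 0.647 to 0.941. Exact permutation tests, not adjusted over hairpins, gave p = 0.632 over the 3 groups and p = 0.857 for 6 transgenic against 3 NTG libraries. The exact permutation within replicate numbers gave p = 0.722. It was added after seeing the data, as was leaving out libraries for the likeness list. Of the 8 rows most like miR-335-5p, 3 remained with Spearman's rho, 2 with deviations from group means and 2 to 7 with each library left out. Deviations of same-numbered libraries had r from -0.17 to 0.23. With 3 libraries per group this cannot settle whether the numbers pair the libraries.

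Over all rows, the main count of 93 called in TG-High against NTG was 37 without TG-High replicate 0, 44 without TG-High replicate 1, 54 without NTG replicate 0 and 52 without NTG replicate 2. The 8 in TG-Low against NTG became 29 with DESeq2's Wald test, 21 with no filter, 0 without TG-Low replicate 1 and 18 without TG-Low replicate 2. The 7 in TG-High against TG-Low became 12 with DESeq2's Wald test, 25 with no filter, 4 with library totals and 0 to 10 with each library left out. With no filter 4 imprinted rows were called in TG-Low against NTG and 4 in TG-High against TG-Low, where the reported count is 0. The causes were not tested.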
